A study of Mus musculus with 6 samples.

Results

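The ephrin ligands are the 8 mouse genes Efna1, Efna2, Efna3, Efna4, Efna5, Efnb1, Efnb2 and Efnb3, chosen by name from the deposited gene counts. All 8 were present among 41053 gene names, and all 8 passed the filter on low counts that left 15263 genes to be tested. Ephrins are cell-surface proteins that bind Eph receptor tyrosine kinases on neighbouring cells. Ephrin-A proteins are held in the membrane by a glycosylphosphatidylinositol (GPI) lipid anchor and bind mostly EphA receptors, while ephrin-B proteins span the membrane, carry a cytoplasmic tail and bind mostly EphB receptors. Contact sends a forward signal into the receptor-bearing cell and a reverse signal into the ephrin-bearing cell, and the system is best known for guiding axons, sorting cells at tissue boundaries and patterning vessels. Ephb2, the receptor targeted in this study, binds the ephrin-B proteins and also ephrin-A5.

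The cells were long-term cultures of spermatogonial stem cells, which maintain sperm production in the testis, from adult mice. Polyadenylated RNA was sequenced from 3 lines labelled Ephb2-KO (a plasmid with a green fluorescent protein reporter and a guide RNA against Ephb2, delivered by electroporation) and 3 wild-type lines (the same reporter plasmid with no guide). Each line was a subclone of sorted fluorescent cells and gave 1 library. Replicates 1 and 2 were at passage 20 and replicate 3 at passage 18 in both groups. Nothing in the labels ties same-numbered lines to a common parent. The p-values measure only the spread between these libraries.

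Total counts were 33140336, 23199572 and 21772404 in replicates 1, 2 and 3 labelled Ephb2-KO and 34047758, 26218662 and 24928648 in wild-type replicates 1, 2 and 3. Levels are given as CPM, counts per 1000000 of scaled library size, and a count of 3 stood for 0.0803 to 0.147 CPM, a floor that covers counting error only. The Ephb2 transcript was not lower in the lines labelled Ephb2-KO (37.1, 16.5 and 13.4 CPM, against 21.3, 27.1 and 10.8 CPM in wild type; edgeR log2 fold change 0.18, SE 0.50, adjusted p = 1.0). A gene-level count cannot reveal a short indel, so the genotype is given below as a label. All 12 germ cell markers had over 1 RPKM (CPM per kilobase of exon) on average, and they made up 0.174% to 0.398% of counts in the lines labelled Ephb2-KO and 0.200% to 0.367% in wild type. The 13 fibroblast or stromal markers were also all above 1 RPKM. They took 0.527%, 0.535% and 1.89% of counts in replicates 1, 2 and 3 labelled Ephb2-KO. In wild-type replicates 1, 2 and 3 they took 0.342%, 0.431% and 1.67%. Their summed share was thus highest in the libraries at passage 18. Endothelial, Sertoli cell and blood markers each stayed at or below 0.0133% of counts in every library. Tie1 had at most 2 counts in any library, whereas Erg, the only one of 8 endothelial markers above 1 RPKM on average, lay between 7.77 and 25.7 RPKM. Of 7 Sertoli cell markers 4 were above 1 RPKM on average, among them Sox9 (3.98 to 10.1 RPKM). Of 4 blood markers 2 were, among them Cd68 (4.18 to 16.0 RPKM). In bulk RNA, fewer cells of a type and less RNA per cell cannot be told apart.

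Efna1, Efna3 and Efna4 lie next to one another on the minus strand of chromosome 3, at 89271733 to 89281142, 89313899 to 89322965 and 89333390 to 89338028 in GRCm38, a cluster of 66.3 kb. Efna2 lies on chromosome 10 (80179482 to 80190010, plus strand) and Efna5 on chromosome 17 (62604184 to 62881317, minus strand). Efnb1 lies on chromosome X (99136130 to 99148991, plus strand), Efnb2 on chromosome 8 (8617434 to 8660773, minus strand) and Efnb3 on chromosome 11 (69554092 to 69560205, minus strand). No exon of the 8 genes was shared with another gene on the same strand. The antisense genes Gm15998 and 4731419I09Rik overlapped exons of Efna3 by 344 bases and of Efna4 by 168 bases, and the counting kept strands apart.

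The promoters of 4 members are shown because their mRNA behaved differently between the lines, with the highest CPM of the 6 libraries 10.4 times the lowest for Efna1, 4.52 times for Efnb2 and 3.24 times for Efnb1, the widest of the family, and 1.18 times for Efna4, the narrowest. Each is the 250 bases before a start listed by RefSeq (GRCm38.p6), written 5′ to 3′ on the strand of the gene. RefSeq starts need not be those of the gene models used for counting, and the Efna1 window shown, before 1 of 2 listed starts, lies inside the span of the gene but overlaps no exon. Capitals mark letter matches on either strand. The GC box was searched as GGGCGG. The box named for its letters was searched as CCAAT. The core promoter element known as the TATA box was searched as TATAAA. The E-box was searched as CACGTG, which none of these windows held. No match overlapped another.
Efna1, chr3:89279646-89279895, minus strand: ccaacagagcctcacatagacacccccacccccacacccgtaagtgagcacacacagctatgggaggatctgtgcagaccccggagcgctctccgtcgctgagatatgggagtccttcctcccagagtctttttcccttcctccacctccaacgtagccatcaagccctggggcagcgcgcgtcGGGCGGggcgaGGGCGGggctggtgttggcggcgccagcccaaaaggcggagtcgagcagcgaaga
Efnb1, chrX:99135811-99136060, plus strand: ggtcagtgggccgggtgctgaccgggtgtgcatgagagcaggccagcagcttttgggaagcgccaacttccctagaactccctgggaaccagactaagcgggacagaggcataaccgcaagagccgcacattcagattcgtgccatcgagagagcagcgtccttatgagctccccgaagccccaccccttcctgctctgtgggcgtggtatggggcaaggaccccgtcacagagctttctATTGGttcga
Efnb2, chr8:8661243-8661492, minus strand: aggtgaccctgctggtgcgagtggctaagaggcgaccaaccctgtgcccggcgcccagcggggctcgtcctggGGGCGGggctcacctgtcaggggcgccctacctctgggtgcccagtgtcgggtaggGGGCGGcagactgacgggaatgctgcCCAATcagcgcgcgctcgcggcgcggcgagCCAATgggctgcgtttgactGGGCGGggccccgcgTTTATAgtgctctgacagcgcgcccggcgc
Efna4, chr3:89338029-89338278, minus strand: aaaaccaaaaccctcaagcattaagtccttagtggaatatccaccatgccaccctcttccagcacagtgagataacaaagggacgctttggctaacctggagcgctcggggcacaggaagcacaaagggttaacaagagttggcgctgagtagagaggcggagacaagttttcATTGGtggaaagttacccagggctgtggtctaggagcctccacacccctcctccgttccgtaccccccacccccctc
The Efna1 window held 2 GC boxes and 18 CpG dinucleotides, and the Efnb2 window held 3 GC boxes, 2 CCAAT boxes, 1 TATA box and 27 CpG. The Efnb1 window held 1 CCAAT box and 13 CpG, and the Efna4 window 1 CCAAT box and 7 CpG. Over 32841 such windows of all genes the median was 6 CpG, and 32.7% held a GC box, 33.9% a CCAAT box, 12.4% a TATA box and 6.02% an E-box. Windows of 3 other members, not shown, held GC boxes too. Efna3 (highest CPM 1.57 times the lowest) had 3 and 31 CpG in the window that overlaps no exon. Efna2 (1.93 times) had 2 and 25 CpG, and Efna5 (3.08 times) had 4 and 32 CpG. These are letter matches only, and no link between them and the spread of a gene was tested.

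Ephrin-A genes supplied most of the ephrin mRNA in every library, and the ephrin-B share moved with the replicate number. To compare genes, levels were divided by exon length (RPKM). Efna4 had the highest level over the 6 libraries at 13 ± 0.953 RPKM (SD, n = 6), followed by Efnb3 (10.3 ± 2.73), Efna2 (9.48 ± 2.02), Efna3 (8.57 ± 1.39) and Efnb2 (7.04 ± 3.55). Efna1 (3.21 ± 2.14), Efnb1 (2.80 ± 1.19) and Efna5 (0.760 ± 0.280) were lowest. Neighbours in this order had overlapping ranges, except that Efnb1 (1.33 to 4.33 RPKM) lay above Efna5 (0.384 to 1.18 RPKM) in 6 of 6 libraries. Efna4 ranked first in 4 libraries and Efnb3 in the replicate 2 libraries of both groups. Efna1 ranked last in those same replicate 2 libraries, and Efna5 ranked last in the other 4.

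Summed over the family, ephrin mRNA came to 57.0, 58.3 and 55.5 RPKM in replicates 1, 2 and 3 labelled Ephb2-KO and to 51.6, 57.6 and 50.6 RPKM in wild-type replicates 1, 2 and 3. The group means were 56.9 ± 1.4 RPKM in lines labelled Ephb2-KO and 53.3 ± 3.79 RPKM in wild type (SD, n = 3 each), with overlapping ranges. Ephrin-B genes made up 24.2%, 45.0% and 36.7% of that sum in replicates 1, 2 and 3 labelled Ephb2-KO and 29.8%, 45.2% and 37.2% in wild-type replicates 1, 2 and 3. The share was lowest in replicate 1 and highest in replicate 2 of both groups. The make-up of the ephrin-B sum shifted as well. Efnb3 supplied 66.1%, 45.6% and 36.9% of it in replicates 1, 2 and 3 labelled Ephb2-KO and 77.1%, 53.5% and 38.5% in wild type. Efnb2 supplied 20.9%, 37.9% and 48.0% in the lines labelled Ephb2-KO and 14.3%, 31.3% and 49.2% in wild type.

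**Figure D1:**
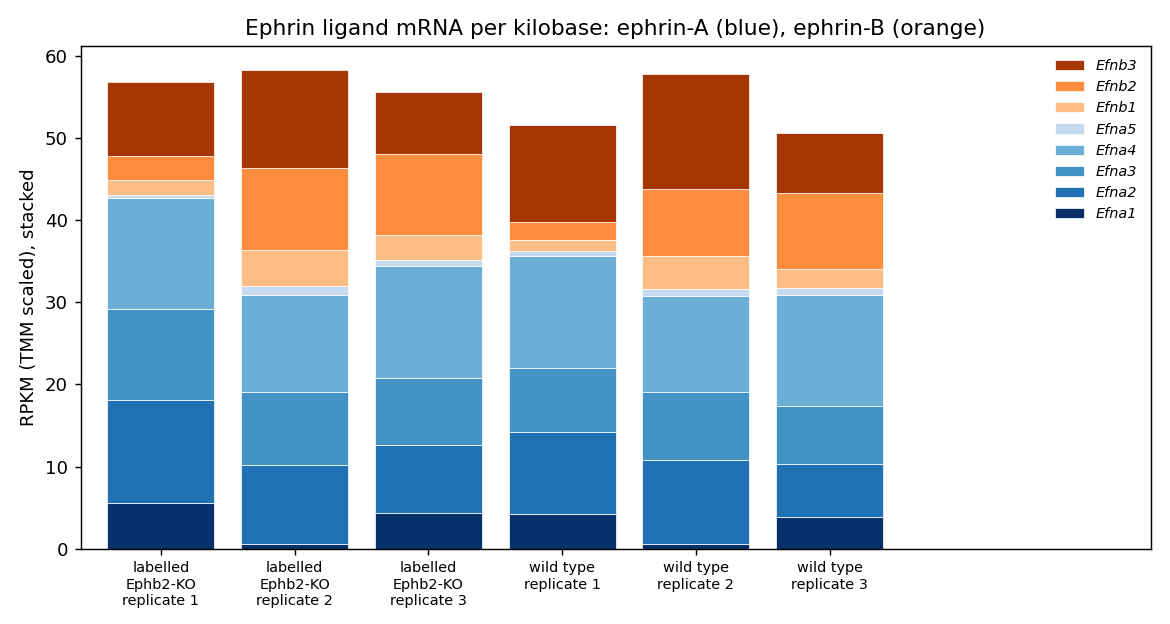
RPKM of the 8 ephrin genes stacked for each of 6 libraries, lines labelled Ephb2-KO left of wild type, with ephrin-A genes in blue and ephrin-B genes in orange. The ephrin-B part is smallest in replicate 1 (24.2% and 29.8%) and largest in replicate 2 (45.0% and 45.2%), and the Efna1 part nearly vanishes in replicate 2.

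The first comparison asked whether ephrin ligand expression differed when the guide against their receptor gene Ephb2 had been used. No ephrin gene passed: 0 of 8 had an adjusted p under 0.05 in the edgeR quasi-likelihood test, where 0% of all 15263 genes did. No ephrin had an unadjusted p under 0.05 either, against 32 of all genes, or 0.210%. DESeq2 also called 0 of 8 ephrins and had none at an unadjusted p under 0.05, where 0.0262% and 0.347% of all genes passed. CPM ranges of the groups overlapped for all 8 genes, while 2.39% of tested genes had separate ranges. Log2 fold changes lay above 0 for 7 ephrins and below 0 for 1, with a median of 0.20, where 53.0% of all tested genes lay above 0 and their median was 0.01.

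Among ephrin-A genes, Efna1, a ligand of EphA2 first found as a gene induced by tumour necrosis factor in endothelium, had 10.3, 0.990 and 8.05 CPM in replicates 1, 2 and 3 labelled Ephb2-KO and 7.79, 1.02 and 7.06 CPM in wild-type replicates 1, 2 and 3. Replicate 2 was low in both groups, which overlapped (log2 fold change 0.29, SE 0.96, edgeR adjusted p = 1.0). Efna2, whose product helps map retinal axons, had 26.6, 20.5 and 17.5 CPM in the lines labelled Ephb2-KO and 21.1, 21.7 and 13.8 CPM in wild type. Efna3, another GPI-anchored ligand, had 27.1, 21.6 and 20.0 CPM in the lines labelled Ephb2-KO and 19.0, 20.3 and 17.2 CPM in wild type. It was higher in the line labelled Ephb2-KO of 3 of 3 same-numbered pairs, as were 15.6% of tested genes, and its lowest value in that group lay just inside the wild-type range (log2 fold change 0.28, SE 0.25, edgeR adjusted p = 1.0). Efna4, the most abundant ephrin per length, had 21.6, 18.9 and 21.7 CPM in the lines labelled Ephb2-KO and 21.9, 18.7 and 21.6 CPM in wild type. Same-numbered libraries differed by -0.02, 0.02 and 0.01 in log2, and the 95% interval of the fold was 0.679 to 1.48. Efna5, the ephrin-A that also binds EphB2, had 1.55, 4.77 and 2.95 CPM in the lines labelled Ephb2-KO and 2.17, 3.45 and 3.51 CPM in wild type. The log2 differences of its pairs were -0.47, 0.46 and -0.25, so they did not share a sign.

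None of the ephrin-B genes, which encode the main ligands of EphB2, passed. Efnb1, an X-linked gene mutated in human craniofrontonasal syndrome, had 6.20, 14.9 and 10.6 CPM in the lines labelled Ephb2-KO and 4.61, 13.6 and 7.96 CPM in wild type (log2 fold change 0.28, SE 0.51, edgeR adjusted p = 1.0). Efnb2, known as a marker of arterial endothelium, had 12.5, 43.0 and 42.3 CPM in the lines labelled Ephb2-KO and 9.51, 35.3 and 40.0 CPM in wild type (log2 fold change 0.20, SE 0.64, edgeR adjusted p = 1.0). Both genes were higher in 3 of 3 same-numbered pairs, by log2 values of 0.42, 0.13 and 0.41 for Efnb1 and 0.39, 0.28 and 0.08 for Efnb2, while the ranges of the groups overlapped over most of their span. Efnb3, a ligand known from the midline of the spinal cord, had 29.0, 38.1 and 24.0 CPM in the lines labelled Ephb2-KO and 37.8, 44.4 and 23.1 CPM in wild type. Its log2 differences in pairs 1, 2 and 3 were -0.38, -0.22 and 0.06 (log2 fold change -0.21, SE 0.32, edgeR adjusted p = 1.0).

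**Figure D2:**
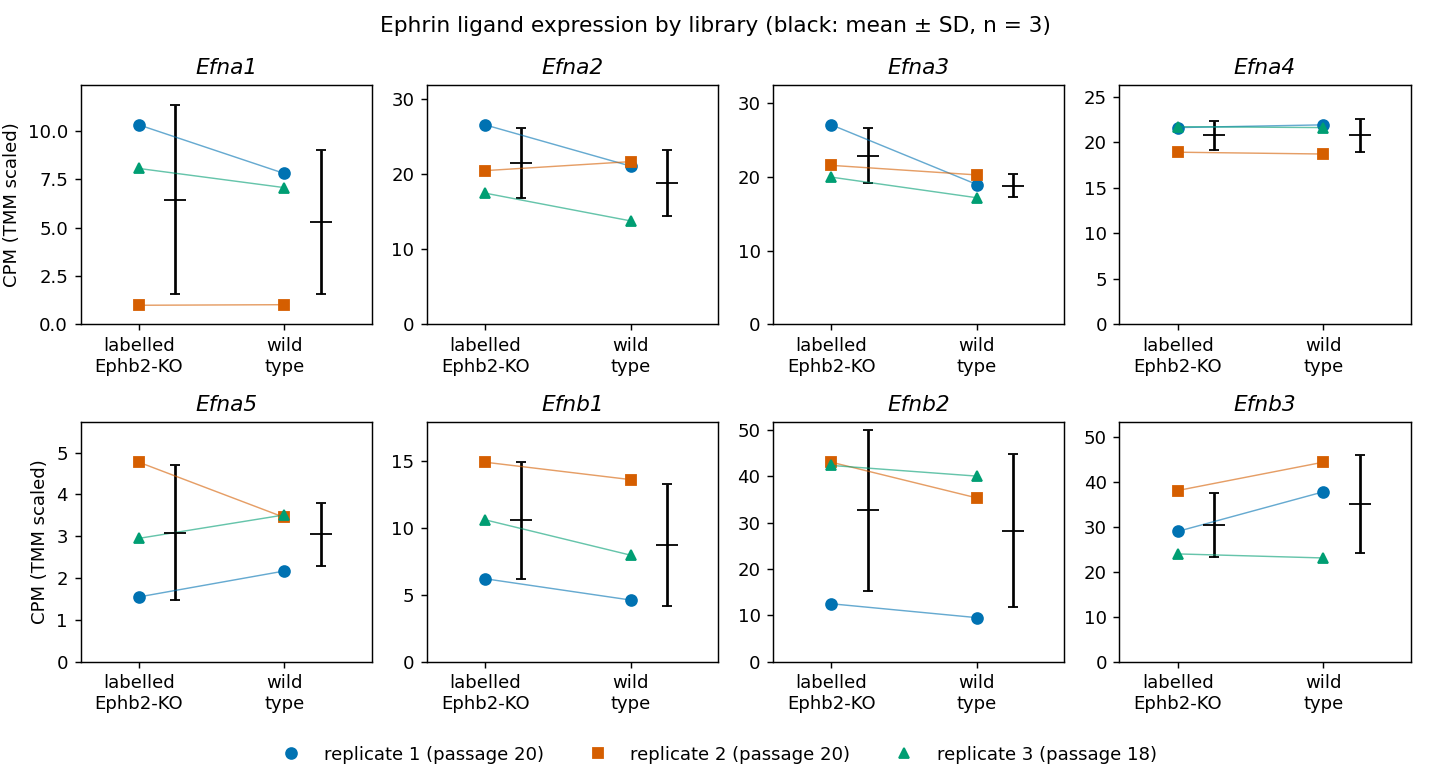
CPM of each ephrin gene in the lines labelled Ephb2-KO (left) and wild-type lines (right), with coloured lines joining libraries of the same replicate number and black bars giving mean ± SD (n = 3). Efna1 is near 1 CPM in both replicate 2 libraries, and Efnb2 is lowest in both replicate 1 libraries (12.5 and 9.51 CPM).

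Same-numbered libraries deviated together over all genes, so the comparison was also made with the replicate number as a block. Unless the block is named, the SE and p-values between the groups come from fits without it. They therefore also hold the spread between replicate numbers. For Efnb2 the SE was 0.64 without the block and 0.14 with it. The block narrowed the 95% intervals and called 0 of 8 ephrins, where 0.0262% of tested genes passed. Their edgeR adjusted p ran from 0.748 for Efnb2 to 0.998 for Efna4. Again 0 of 8 had an unadjusted p under 0.05 (6.47% of all genes). In that fit the fold for lines labelled Ephb2-KO over wild type was bounded by 0.963 and 1.47 for Efnb2, 0.940 and 1.66 for Efnb1, and 0.709 and 1.09 for Efnb3. The bounds were 0.949 and 1.54 for Efna3, 0.896 and 1.47 for Efna2, 0.797 and 1.26 for Efna4, 0.820 and 1.65 for Efna1, and 0.600 and 1.49 for Efna5. A 2-fold change of any ephrin in either direction lay outside these intervals, which borrow their spread from other genes. Efna5 was the only ephrin whose sign turned with the block (log2 fold change 0.02 without it and -0.08 with it).

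**Figure D3:**
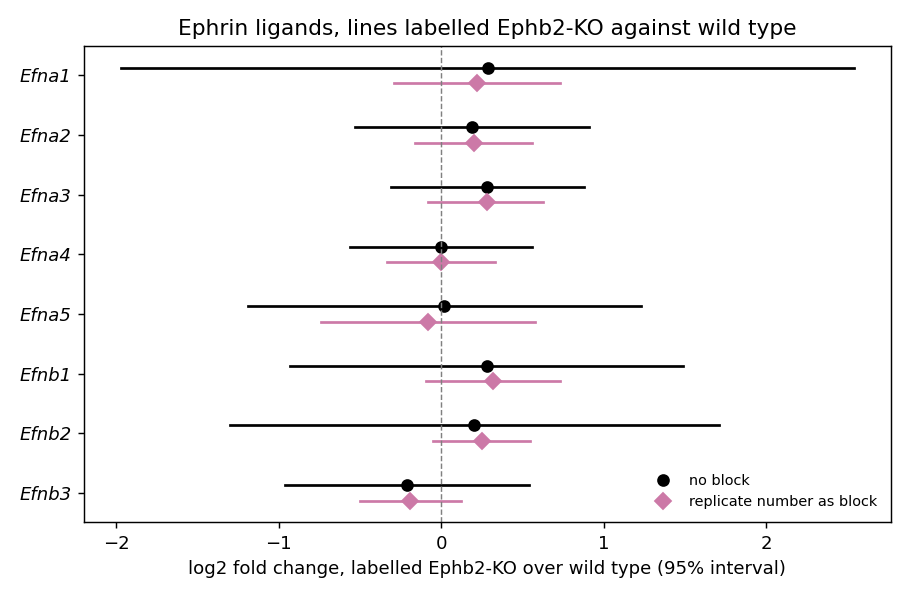
Log2 fold change of each ephrin gene for lines labelled Ephb2-KO over wild type, with 95% intervals from the edgeR fit without a block (black circles) and with the replicate number as a block (pink diamonds). Every interval spans 0, and the block narrows the interval of Efna1 from -1.97 to 2.54 down to -0.29 to 0.73.

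Some ephrins did pass between replicate numbers, in libraries of both groups alike. Between replicates 2 and 1, both at passage 20, 3 of 8 ephrins were called (edgeR with group as a covariate, libraries of both groups together), Efnb1 and Efnb2 higher and Efna1 lower in replicate 2. Across all genes 16.5% were called, 8.14% higher and 8.35% lower. The median size of the log2 difference was 0.73 for the ephrins and 0.34 for all genes tested. Efna1 stood at 0.990 CPM in replicate 2 labelled Ephb2-KO (22 counts, exact 95% Poisson interval 0.621 to 1.5 CPM) and 1.02 CPM in wild-type replicate 2 (26 counts, 0.666 to 1.49 CPM), against 10.3 and 7.79 CPM in replicate 1 of these groups. That is a log2 difference of -3.15 (SE 0.31, edgeR adjusted p = 0.000158), 8.86-fold lower in replicate 2. Efnb2 was 3.57-fold higher in replicate 2 (log2 difference 1.84, SE 0.17, edgeR adjusted p = 0.000130) and Efnb1 2.67-fold higher (1.42, SE 0.23, adjusted p = 0.00325). Efna5 missed the threshold (log2 difference 1.15, SE 0.37, edgeR adjusted p = 0.0551). It passed without wild-type replicate 1 (1.46, adjusted p = 0.00377) and with no filter on low counts (1.19, adjusted p = 0.0269), and the difference was 0.73 (adjusted p = 0.400) without replicate 2 labelled Ephb2-KO. Efna2, Efna3, Efna4 and Efnb3 had log2 differences of -0.16 (95% interval -0.60 to 0.27), -0.12 (-0.55 to 0.31), -0.21 (-0.62 to 0.19) and 0.31 (-0.06 to 0.69). Replicate 1 libraries were also the deepest, and whether depth or line history has a part in these differences was not tested.

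Passage 18 was replicate 3 in both groups, so passage and replicate number cannot be told apart. Replicate number was in the fit, so the p-values below come from the spread within same-numbered pairs. They leave out the spread between replicate numbers at the same passage. In the contrast of replicate 3 with the mean of replicates 1 and 2, 4 of 8 ephrins were called, close to the 48.0% of all genes called. Efnb3 had 29.0 to 44.4 CPM in the passage 20 libraries, all above the 24.0 and 23.1 CPM of the passage 18 lines labelled Ephb2-KO and wild type (log2 difference, passage 18 minus passage 20, -0.65, SE 0.15, edgeR adjusted p = 0.00513). Efna2 had 20.5 to 26.6 CPM in the passage 20 libraries and 13.8 to 17.5 CPM in those at passage 18 (-0.53, SE 0.18, edgeR adjusted p = 0.0296). Without wild-type replicate 3 neither passed, at log2 differences of -0.47 for Efnb3 (adjusted p = 0.214) and -0.41 for Efna2 (adjusted p = 0.374), and Efna2 also missed without replicate 3 labelled Ephb2-KO (-0.63, adjusted p = 0.161) or without wild-type replicate 2 (-0.43, adjusted p = 0.0919). The other calls, Efna1 (1.32, SE 0.23, edgeR adjusted p = 0.000885) and Efnb2 (1.0, SE 0.14, adjusted p = 0.000204), set replicate 3 against a mean of unlike numbers. Replicate 3 was then set against 1 number at a time, contrasts added after the data were seen, in which 42.6% of all genes were called against replicate 1 and 45.4% against replicate 2. Efna1 in replicate 3 did not pass against replicate 1 (-0.25, SE 0.26, edgeR adjusted p = 0.466) and was 7.45-fold higher than in replicate 2 (edgeR adjusted p = 3.54e-05). Efnb2 in replicate 3 was 3.78-fold higher than in replicate 1 (edgeR adjusted p = 1.05e-05) and did not pass against replicate 2 (0.08, SE 0.17, edgeR adjusted p = 0.719). Efnb1 in replicate 3 lay between the others, 1.72-fold above replicate 1 (edgeR adjusted p = 0.0193) and 0.643 times the level of replicate 2 (adjusted p = 0.0408). Efnb3 was lower in replicate 3 than in replicate 1 (-0.49, SE 0.17, edgeR adjusted p = 0.0393) and than in replicate 2 (-0.80, SE 0.17, adjusted p = 0.00324). Efna2 was lower in replicate 3 than in replicate 1 (-0.61, SE 0.2, edgeR adjusted p = 0.03). It did not pass against replicate 2 (-0.45, SE 0.2, edgeR adjusted p = 0.0933). The germ cell markers took 0.332% to 0.398% of counts in the passage 20 libraries, against 0.174% in the passage 18 line labelled Ephb2-KO and 0.200% in the passage 18 wild-type line, and the fibroblast or stromal markers given above were highest in the passage 18 libraries. The part of either in these differences was not tested.

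**Figure D4:**
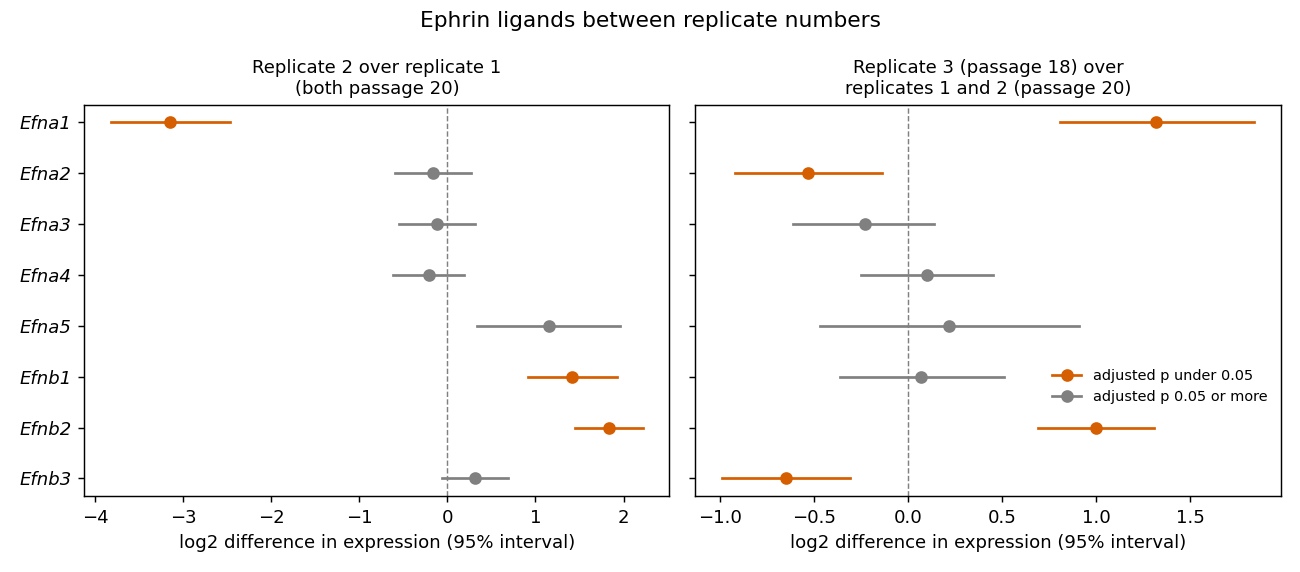
Log2 difference of each ephrin gene with its 95% interval for replicate 2 over replicate 1 (left) and for replicate 3 at passage 18 over the mean of replicates 1 and 2 at passage 20 (right), from the edgeR fit with group as a covariate; orange marks an adjusted p under 0.05. In the left panel Efna1 lies at -3.15 with Efnb1 and Efnb2 at 1.42 and 1.84, and in the right panel Efna1 and Efnb2 lie above 0 with Efna2 and Efnb3 below.

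The receptors of these ligands showed no call between the groups and some between replicate numbers. Of 9 EphA receptor genes 6 were tested, 3 above 0 and 3 below in lines labelled Ephb2-KO against wild type (median log2 fold change -0.06), and 0 passed in the edgeR test with or without the block. Epha2, a receptor that ephrin-A1 binds, had the highest mean over the 6 libraries. Its levels were 5.85, 33.9 and 3.92 RPKM in replicates 1, 2 and 3 labelled Ephb2-KO. In wild-type replicates 1, 2 and 3 they were 2.87, 37.5 and 3.28 RPKM. Epha2 was thus highest in the replicate 2 libraries where Efna1 was lowest (log2 difference of replicate 2 over replicate 1, 3.10, SE 0.26, edgeR adjusted p = 0.000295). Epha1 averaged 7.0 ± 3.16 RPKM in lines labelled Ephb2-KO and 7.73 ± 2.97 RPKM in wild type (SD, n = 3 each). It lay above Epha2 in replicates 1 and 3 labelled Ephb2-KO (6.04 and 4.43 RPKM) and in wild-type replicates 1 and 3 (8.83 and 4.36 RPKM). Epha4, which binds ephrins of both classes, averaged 0.833 ± 0.450 and 1.08 ± 0.303 RPKM in those groups. Epha3 was higher in replicate 2 than in replicate 1 as well (1.41, SE 0.38, edgeR adjusted p = 0.0284). Of the 6 EphA genes tested, 2 were called higher and 0 lower in that contrast, where 16.5% of all genes were called. In replicate 3 against the mean of replicates 1 and 2, 2 were called higher and 3 lower, where 48.0% of all genes were called. The 4 EphB receptor genes other than Ephb2 all lay above 0 in lines labelled Ephb2-KO (median log2 fold change 0.26), or 3 of 4 with the block, with 0 called in either fit. The smallest p was that of Ephb4 (18.2, 10.1 and 16.3 RPKM in the lines labelled Ephb2-KO, against 7.64, 9.06 and 11.1 RPKM in wild type; log2 fold change 0.68, SE 0.28, edgeR adjusted p = 1.0), and its ranges overlapped. Ephb4 was higher in the line labelled Ephb2-KO of 3 of 3 same-numbered pairs, as were 15.6% of tested genes. With the block its log2 fold change was 0.65 (SE 0.19), and it was not called. Before adjustment it fell under the threshold of 0.05, as did 0.210% of tested genes without the block and 6.47% with it. Per length, Ephb4, which pairs with ephrin-B2, and Ephb6, which lacks kinase activity, averaged 12.1 and 11.3 RPKM over all libraries and Ephb3 2.56 RPKM. Ephb3 was lower in replicate 2 than in replicate 1 (log2 difference -0.74, SE 0.21, edgeR adjusted p = 0.0343), the reverse of Efnb1 and Efnb2 in that contrast. In replicate 3 against the mean of replicates 1 and 2, Ephb3 was higher (0.64, SE 0.17, edgeR adjusted p = 0.011). Efnb2 was higher there too, and Efnb1 was not called. No other of these 4 EphB genes was called in either contrast. Ephb2 itself was lower in replicate 3 (-1.07, SE 0.29, edgeR adjusted p = 0.0159).

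Genes that act with ephrins in the same cell were measured as 3 further lists, and none was called between the groups in the edgeR test with or without the block. Of 20 ephrin-B reverse signalling partners 18 were tested, 12 above 0 and 6 below (median 0.05). Sdcbp, whose product syntenin binds the tail of ephrin-B, was the most abundant at 65.6 ± 15.9 RPKM in lines labelled Ephb2-KO and 67.1 ± 15.5 RPKM in wild type (SD, n = 3 each), ahead of Stat3 and the kinase gene Src. Git1, an adaptor in ephrin-B signalling, had the smallest p of that list (log2 fold change 0.39, SE 0.26, edgeR adjusted p = 1.0), followed by the PDZ protein genes Pick1 (-0.30, SE 0.27) and Grip1 (-0.55, SE 0.52). Between replicates 2 and 1, 3 of the 18 partners were called higher and 3 lower, where 8.14% and 8.35% of all genes were, and Sdcbp was among the higher (0.68, SE 0.14, edgeR adjusted p = 0.00874). Of 11 ephrin-A co-receptors and sheddases 9 were tested, 8 above 0 and 1 below (median 0.16). They included the protease gene Adam10, at 22.5 ± 2.39 RPKM in lines labelled Ephb2-KO and 21.2 ± 2.65 RPKM in wild type, and Ret, at 19.2 ± 7.53 and 19.0 ± 9.34 RPKM (SD, n = 3 each). Ret encodes the receptor tyrosine kinase of the GDNF receptor complex and works with ephrin-A in motor axons. For Adam12, another protease gene, the log2 fold change was 0.38 (SE 0.55), and it was higher in replicate 2 than in replicate 1 (1.46, SE 0.22, edgeR adjusted p = 0.00198). The 5 genes of the enzyme that attaches GPI anchors lay above 0 in 4 cases (median 0.21), or 5 of 5 with the block (median 0.22), and 4 of the 5 were higher in the line labelled Ephb2-KO of 3 of 3 same-numbered pairs, as were 15.6% of all genes. Their most abundant member was Pigs, at 50.9 ± 1.54 RPKM in lines labelled Ephb2-KO and 43.9 ± 5.76 RPKM in wild type (SD, n = 3 each; log2 fold change 0.21, SE 0.18, edgeR adjusted p = 1.0). The others of that enzyme by the naming rule, Pigt, Pigu and Gpaa1, had log2 fold changes of 0.32 (SE 0.46), 0.23 (SE 0.20) and 0.13 (SE 0.28).

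The ephrin with the highest level and the most variable one were matched to genes of like profile, by the root mean square difference of centred log2 CPM over the 6 libraries. For Efna4 the nearest was Yy1, a zinc finger transcription factor gene, with a difference of 0.0175 against a median of 0.398 over all tested genes. It had 55.4, 49.7 and 55.5 CPM in replicates 1, 2 and 3 labelled Ephb2-KO and 57.5, 48.7 and 56.9 CPM in wild type. The next were 1110032A03Rik (0.0347) and Ube2q1 (0.0391). For Efna1 the nearest was Ascl2, a basic helix-loop-helix transcription factor gene, at 0.156 against a median of 1.44. It had 4.26, 0.360 and 3.63 CPM in replicates 1, 2 and 3 labelled Ephb2-KO and 2.65, 0.353 and 3.38 CPM in wild type. Rab3a, a gene of vesicle release, came next (0.214), at 22.7, 3.69 and 20.8 CPM in lines labelled Ephb2-KO and 23.7, 3.17 and 19.1 CPM in wild type, and B230322F03Rik followed (0.292). All 3 were lowest in the replicate 2 libraries, as Efna1 was, which follows from how they were picked. B230322F03Rik had 0.18 CPM in replicate 2 labelled Ephb2-KO and 0.0784 CPM in wild-type replicate 2. A count of 3 stood for 0.135 and 0.118 CPM there.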

How the data were processed

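The authors deposited 1 table per library, holding unnormalized read counts and an exon length for every gene. Per the file headers, reads were counted with featureCounts 1.4.6-p4 over exons of GENCODE M3 grouped by gene name, with strand setting 2 (reversely stranded) and no options for read pairs, multi-mapping or overlapping features. STAR, FastQC and the build GRCm38.p3 are named in the submitters' processing notes without versions of the tools. The tests were run with edgeR 4.0.16 (R 4.3.3): filterByExpr, TMM scaling, robust glmQLFit and glmQLFTest over 15263 genes, Benjamini-Hochberg adjustment and a threshold of 0.05. The groups were compared with no covariate. Passage and replicate contrasts had group and replicate number in the fit. SE is the log2 fold change over the square root of F, CPM and RPKM are on TMM-scaled totals, and a prior count of 2 was added for log2 CPM. Alternatives were RLE scaling, other filters, DESeq2 1.42.0, the replicate block and left-out libraries; contrasts of replicate 3 with a single number were added after the data were seen. The fits were also run on simulated counts with known changes, drawn with the spread of the fit with the block. The outcome is not reported here. The 8 members, the 5 gene lists and 5 marker lists, and the rule for named genes (all members, Ephb2, from each list the 3 smallest p and the 3 highest RPKM, and 3 genes of like profile for the most abundant and the most variable ephrin) were chosen with earlier results of these data known. Some genes that this rule picks from the lists are not reported here; none of them was called between the groups.

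Deviations from group means over genes correlated at 0.596, 0.736 and 0.850 between same-numbered libraries of the groups. Between libraries of unlike number the correlations ran from -0.631 to 0.079. By the bound of 0.1 set for this check, the shared numbers in the sample titles were taken to pair the libraries, though the labels name no common parent. Promoter sequences are RefSeq's (GRCm38.p6; 7 of 8 members matched by symbol), and exons overlapping them were looked up in GENCODE M21; windows that overlap an exon are not shown. Figures were drawn with matplotlib 3.10.9.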

Additional observations from a re-analysis of the deposited data

How the results depend on the processing

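The count of ephrins called between the groups was 0 under every alternative run, leaving out each library included. Over all genes the count was 0 without the block and 4 with the replicate block or with DESeq2; leaving out libraries gave 0 to 56, the highest without both replicate 1 libraries in the fit with the block. The count of ephrins called at passage 18 against passage 20 was 4, between 2 and 4 without a single library (2 without wild-type replicate 3); between replicates 2 and 1 it was 3, or 3 to 4. The cause was not tested. Signs between the groups turned for Efna4 with a filter of 1 CPM in 3 libraries (-0.0038) and without both replicate 2 libraries in the fit with the block (-0.0047), and for Efna5 with the replicate block (-0.08). Leaving out libraries gave log2 fold changes between the groups of -0.23 to 0.80 for Efna1, -0.07 to 0.07 for Efna4, -0.44 to 0.35 for Efna5, -0.06 to 0.76 for Efnb1 and -0.21 to 0.59 for Efnb2, and kept the sign of Efna2, Efna3 and Efnb3. Between replicates 2 and 1 it gave -0.37 to 0.05 for Efna2 and -0.29 to 0.06 for Efna3, and at passage 18 against 20 it gave -0.01 to 0.14 for Efnb1. The replicate block changed no call of an ephrin. Depth limits Efna1 in replicate 2 (22 and 26 counts) and Efna5 most.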

Other observations

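The low Efna1 level of the replicate 2 lines can be set beside its neighbours on chromosome 3. Of 15263 genes tested between replicates 2 and 1 in edgeR, 35 had a lower log2 difference than Efna1. Within 100000 bases of Efna1, 16 other genes were tested, and their log2 differences ran from -0.65 to 1.61 with a median of 0.10, against -3.15 for Efna1. Of these, 3 were called higher and 1 lower, where 8.14% and 8.35% of all genes were. The nearest, Slc50a1, which encodes a sugar transporter and lies 1163 bases away, had -0.35 (edgeR adjusted p = 0.300), and Dpm3, a gene of dolichol-phosphate-mannose synthesis 4654 bases away, had 0.06. Muc1, an epithelial mucin gene in the same window, was higher in replicate 2 (1.61, edgeR adjusted p = 0.00862), and Clk2, a splicing kinase gene, was lower (-0.65, edgeR adjusted p = 0.0165). This window was chosen after the Efna1 values were seen.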
